A study of Mus musculus with 18 samples.

Results

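Heavy polysome RNA was compared with Light polysome RNA in murine osteosarcoma cells that had lost Prmt1, the main enzyme for asymmetric dimethylation of arginine in proteins. The comparison used 3 Heavy and 3 Light knockout libraries out of 18 libraries in all, and every gene of the deposited table, of which 17515 of 19862 were tested. The cells are 1 Prmt1 f/f osteosarcoma line of mixed strain background, derived from tumors of mice with conditional deletion of p53 and Rb and labelled with an age of 299 postnatal days. All groups used here carry the floxed Prmt1 alleles and a stably expressed CreER, a Cre recombinase that enters the nucleus when it binds tamoxifen. Knockout cells, genotype Prmt1-/-, had been given 4OHT, the active form of tamoxifen, and control cells, labelled wild type, only the ethanol vehicle. No treatment time is given, and no group separates 4OHT from loss of Prmt1. The labels leave it unsaid if the 3 libraries of a group are separate cultures. P-values of the main test therefore measure the spread between libraries, pooled over all 18, and not that of the 6 libraries alone.

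Cells were treated with cycloheximide at 100 µg/ml, which stops ribosomes where they are on the message. The cytoplasmic lysate was spun through a sucrose gradient of 10 to 50%. Light RNA pools the fractions with fewer than 3 ribosomes per message, Heavy RNA those with more than 3, and Total is the lysate before the gradient. A ribosome binds near the 5′ end, starts at an AUG codon and moves to the stop codon, and a further ribosome can start once the first has cleared the way. How many sit on a message therefore depends on how often translation starts, how fast ribosomes move, and how much coding sequence there is to hold them. Every library has its own total, so a higher value in Heavy means a larger share of the Heavy RNA, not more molecules in the cell, and free messages outside both pools do not enter either side.

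Sequences show why the size of a message has to stand beside its fraction, and how some messages interrupt reading. The 3 coding regions below, from GENCODE M21 transcripts on GRCm38, belong to messages that were among the most Light in knockout cells, with the start and stop codons in capitals. Rpl41 encodes the smallest protein of the large ribosomal subunit (25 codons, chr10:128548387-128548960, minus strand). Ost4 is a small subunit of the oligosaccharyltransferase that glycosylates new proteins in the endoplasmic reticulum (37 codons, chr5:30907422-30907535, minus strand), and Tmsb10 is an actin-monomer binding peptide (44 codons, chr6:72957618-72958012, minus strand).
Rpl41: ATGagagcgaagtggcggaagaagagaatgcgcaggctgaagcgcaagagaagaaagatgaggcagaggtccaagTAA
Ost4: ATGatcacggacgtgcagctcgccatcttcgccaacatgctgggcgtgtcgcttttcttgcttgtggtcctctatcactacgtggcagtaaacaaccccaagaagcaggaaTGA
Tmsb10: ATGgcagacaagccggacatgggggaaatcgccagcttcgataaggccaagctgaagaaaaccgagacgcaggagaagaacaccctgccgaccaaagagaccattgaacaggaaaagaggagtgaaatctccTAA

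The next windows come from messages that ribosomes read with a recoding step. In Gpx1, Gpx4 and Selenof a TGA inside the reading frame, in capitals, is read as selenocysteine. In Oaz1 the first reading frame ends at the TGA in capitals, and ribosomes slip by 1 base there to make antizyme, the annotated skipped base being position 80828295 of chromosome 10. The windows lie at chr9:108339439-108339465 (Gpx1), chr10:80054725-80054751 (Gpx4), chr3:144590633-144590659 (Selenof) and chr10:80828282-80828308 (Oaz1), all on the plus strand.
Gpx1: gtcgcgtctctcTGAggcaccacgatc
Gpx4: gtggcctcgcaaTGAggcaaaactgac
Selenof: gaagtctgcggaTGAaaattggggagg
Oaz1: tcggtggtgctccTGAtgtccctcacc

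The 6 libraries held 32255673 to 50751886 reads assigned to genes, and those of the whole series 32255673 to 57948663. Prmt1 (chr7:44976755-44986420, minus strand) was at 64.4, 121 and 145.3 CPM (reads of a gene as a share of all reads assigned in the library, scaled to a fixed total) in the knockout Heavy libraries against 370 to 412 CPM in the control Heavy libraries. In Total RNA it was at 147 to 176 CPM in knockout and 256 to 285 CPM in control cells. Reads are summed over the whole gene and the floxed exons are not given, so this level does not measure how complete the deletion was. The knockout libraries numbered 1 stood apart by their root mean square deviation from the group mean (log2). It was 0.339 in Heavy library 1 against 0.168 and 0.244 in the others, and 0.241 in Light library 1 against 0.163 and 0.166. In control cells it was lower in most libraries, at 0.126 to 0.177 in Heavy and 0.121 to 0.156 in Light. Of 24 osteoblast lineage genes, 7 had a mean of at least 5 CPM, among them Runx2 (37.8 to 59.7 CPM), the lineage's defining transcription factor. Alpl (23.7 to 39.4 CPM) and Spp1, a later marker (19.55 to 42.14 CPM), reached it too. Sp7 reached at most 2.96 CPM, and the late markers Bglap and Dmp1 stayed under 0.3 CPM. Ibsp, Sost and Mepe were not above 0 in enough libraries to be tested. Of the macrophage, endothelial and epithelial lists 1, 1 and 2 genes reached that mean: Csf1r (4.55 to 14.05 CPM), Eng (131 to 163 CPM, above Runx2), Krt19 (7.62 to 14.4 CPM) and Krt14 (3.91 to 9.08 CPM). Cd14 was at 4.37 to 5.74 CPM, and Ptprc, Cdh5 and Epcam were near 0. The macrophage list summed to 12.2 to 16.03 CPM in Heavy and 17.1 to 23.0 CPM in Light. For the level of a marker in such bulk RNA, few cells of a type and little RNA per cell cannot be told apart.

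In knockout cells, 2949 genes were higher in Heavy (16.8% of 17515) and 4694 were lower (26.8%), so 43.6% passed an adjusted p of 0.05 in limma. The groups did not overlap at all for 8118 genes (46.3%). The difference, Heavy minus Light on the log2(CPM + 1) scale, ran from -2.94 to 1.28, and of the called genes 1822 were at least 2-fold lower and 190 at least 2-fold higher. The split depends on the scaling: quantile normalization gave 4610 higher and 3658 lower, and median-of-ratios scaling 3978 and 4175. These scalings moved the median difference, taken over genes whose mean reached 1 CPM, from -0.02 to 0.16 and 0.11. With the knockout Heavy and Light libraries fitted alone, 1625 genes were higher and 3682 lower.

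The lowest 10 called genes by the size of the difference were all short messages. A list of 55 messages of very small proteins was lower throughout (median -2.25), with 37 lower and 5 higher once the coding-length trend was removed. Tmsb10 was at 41.3, 79.2 and 53.4 CPM in Heavy and 333, 538 and 457 CPM in Light. The groups lay far apart, with a difference of -2.94 (SE 0.22, adjusted p = 1.38e-07). Its relative Tmsb4x, also a beta-thymosin of 44 codons, stood at 17.5, 34.4 and 27.4 CPM in Heavy against 137, 189 and 230 CPM in Light (-2.78, SE 0.21, adjusted p = 1.45e-07). Rpl41, the shortest coding region among the genes named here, was at 107, 173 and 149 CPM in Heavy and 713, 1102 and 1107 CPM in Light (-2.76, SE 0.20). Every Light library was above every Heavy library for these 3 genes, and library 1 was the lowest of each group. The others were Rps27l (-2.68), Tomm6 of the mitochondrial import pore (-2.65), Rpl39 (-2.65), Gng5, a G-protein gamma subunit (-2.65), Atp5e of ATP synthase (-2.64), the copper chaperone Atox1 (-2.62) and Rps29 (-2.61). Their coding lengths ran from 25 to 84 codons. For Tomm6, 76.0% of the exon bases also lie in the gene Gm21981 on the same strand, so its reads may be shared.

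At the other end, the highest 10 called genes differed by 1.23 to 1.28, and their coding lengths ran from 341 to 780 codons. Fam98b, a partner of the tRNA ligase complex, was at 112, 99.5 and 79.2 CPM in Heavy against 43.0, 36.7 and 37.2 CPM in Light (1.28, SE 0.14, adjusted p = 1.87e-06). Hnrnpa2b1, an RNA-binding protein with an arginine and glycine rich domain, was at 942, 748 and 611 CPM in Heavy and 368, 260 and 314 CPM in Light (1.28, SE 0.18, adjusted p = 2.40e-05). Both genes separated the groups in all 6 libraries, with Heavy library 1 the highest. The rest were the histone chaperone Nasp, the ribosome biogenesis factor Wdr46, the spindle protein Tacc3, the glycolytic enzyme Pfkl, the chaperonin subunits Cct3 and Cct5, the splicing factor Smu1 and the mitotic kinesin Kif22. In the plot of levels by library, Tmsb10, Rpl41, Ndufc1, Oaz1 and Gpx4 fill the Light side and Cct3, Hnrnpa2b1, Pfkl and Actb the Heavy side.

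**Figure D1:**
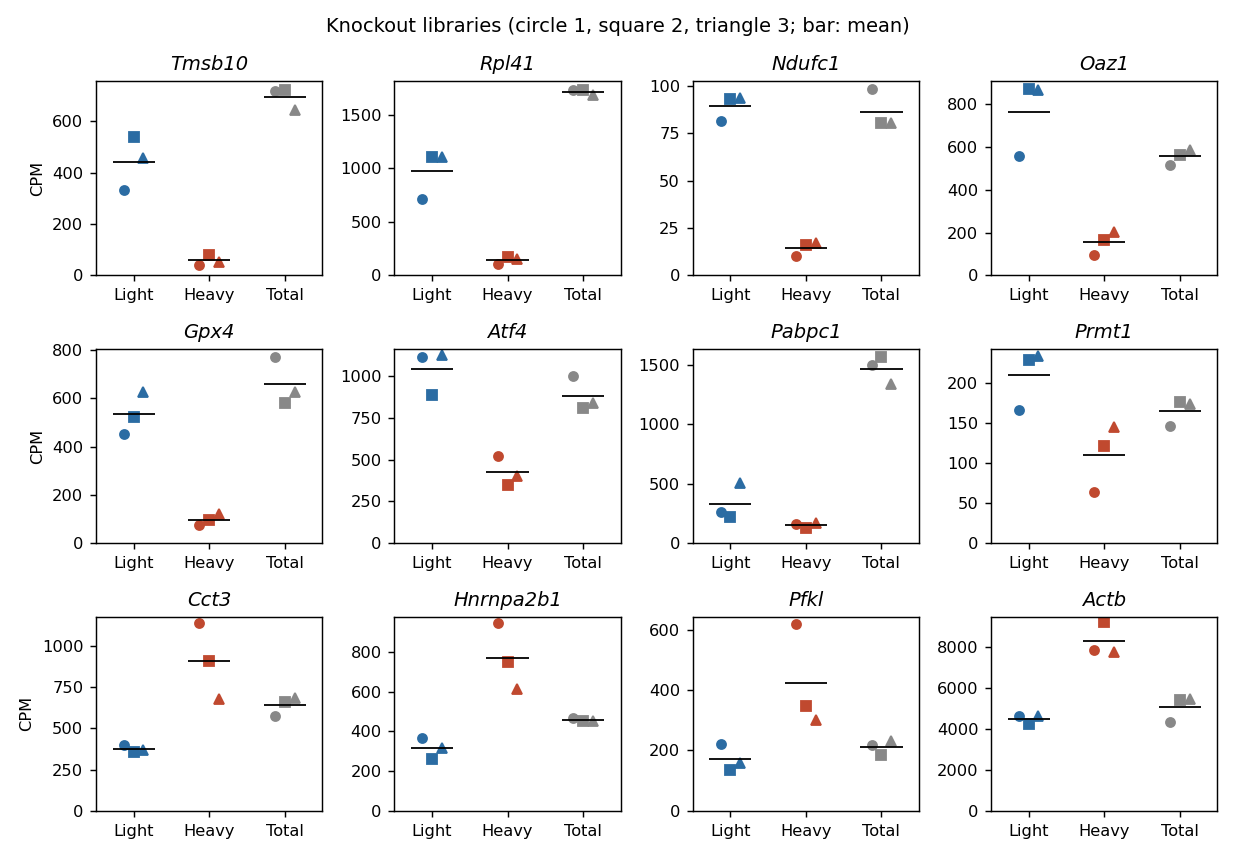
CPM of 12 genes (vertical axis, each from 0) in the 3 Light, 3 Heavy and 3 Total libraries of knockout cells, with the symbol giving the library number and the bar the mean. Tmsb10 lies between 41.3 and 79.2 CPM in Heavy and between 333 and 538 CPM in Light, and Pabpc1 is far higher in Total than in either pool.

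Abundant messages fell on both sides. Among the called genes with the highest mean level, Actb (cytoplasmic actin) was at 7889, 9249 and 7779 CPM in Heavy and 4617, 4230 and 4623 CPM in Light (0.88, SE 0.12, adjusted p = 1.73e-05). Eef1a1, the elongation factor that brings tRNA to the ribosome, was at 8475, 8302 and 6314 CPM against 3767, 3520 and 4112 CPM (1.01, SE 0.12). For both genes the lowest Heavy library was above the highest Light library. Actg1 (1.07) and Pkm (1.05), the last an enzyme of glycolysis, were also higher, but Actb and Actg1 were not called after quantile normalization (adjusted p = 0.397 and 0.101). Gm5506 (1.06), a near-identical copy of the enolase gene Eno1 (1.06), and Gm1821 (1.04), whose values stayed within 0.0986 log2 of those of Ubb (1.06) in every library, can share reads with their partners and are uncertain. On the Light side stood S100a6 (-1.85), a calcium-binding protein, the galectin Lgals1 (-1.07), prothymosin Ptma (-1.21), the hypusine-carrying factor Eif5a (-0.89), the myosin light chain Myl12a (-0.80) and the ribosomal protein messages Rpl13 (-1.19) and Rps18 (-0.69). All of these code for at most 211 codons.

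The fraction moved with coding length across genes. Of 9527 genes whose mean over the 6 libraries reached 5 CPM, 63% were called, 28.4% higher in Heavy and 34.5% lower. Of 196 such genes with up to 100 codons, 2 were higher and 193 lower, with a median difference of -1.95. The 1111 genes of 101 to 200 codons had 16 higher and 940 lower (median -1.16), and the 1327 genes of 201 to 300 codons 185 and 641 (median -0.35). Above that the balance turned. For 2631 genes of 301 to 500 codons the counts were 890 and 791, for 2803 genes of 501 to 1000 codons 1164 and 449, and for 203 genes of over 2000 codons 66 and 10. The median rose to 0.31 at 501 to 1000 codons and was 0.28 and 0.35 in the longer bins. The interquartile range of the 301 to 500 codon bin ran from -0.49 to 0.51, so length alone did not place a message.

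**Figure D2:**
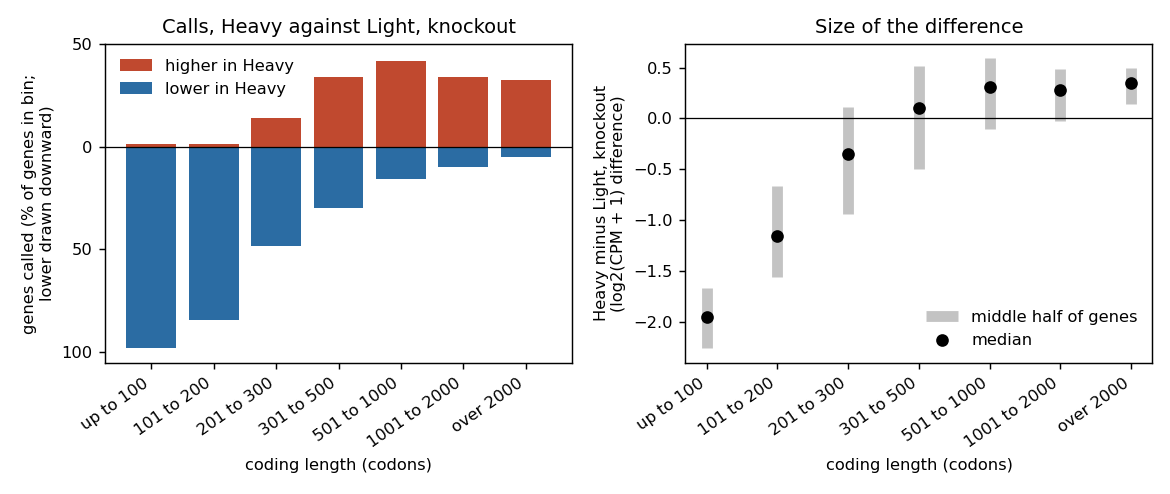
Left, percent of genes called higher (up) or lower (down) in Heavy than in Light by coding length in codons. Right, median and interquartile range of the Heavy minus Light difference (log2(CPM + 1)) of genes with at least 5 CPM in knockout cells. The medians run from -1.95 in the shortest bin to 0.35 in the longest.

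Cytosolic ribosomal proteins, the structural proteins of the ribosome itself, were mostly Light. Of 49 large subunit genes 35 were lower and 6 higher (median -1.004), and of 33 small subunit genes 25 were lower and 1 higher (median -0.95). Their summed level was 48235, 76922 and 78728 CPM in Heavy and 93710, 109336 and 99176 CPM in Light. The groups did not overlap, and the exact 2-sided permutation test gave p = 0.1, the smallest that 3 against 3 libraries allow. The members were spread by coding length: all 10 with up to 100 codons and all 31 with 101 to 150 codons were lower. Of 19 with 151 to 200 codons 13 were lower and 1 higher, and of 19 with 201 to 300 codons 5 were lower and 4 higher. Many of these genes have processed copies in the genome, and the treatment of reads with several matches is unknown here, so single members are uncertain.

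Rpl3 and Rpl4, which line the catalytic core and the exit tunnel, are the longest members and were Heavy. Rpl3 was at 2494, 2594 and 1963 CPM in Heavy and 1212, 1034 and 1139 CPM in Light (1.05, SE 0.11, adjusted p = 1.33e-06). The groups were well apart. Rpl4 (0.78), Rpl5 (0.75), Rps4x (0.74) and Rpl7 (0.58) were also higher. The calls of Rpl6 (0.37, adjusted p = 0.0333) and Rpl19 (0.31, adjusted p = 0.0481) were each lost in 8 alternative settings. Both were lost with a replicate block, after quantile normalization and with the knockout libraries alone. They were also lost without Heavy library 2 or 3 and without Light library 2 or 3. Rplp0, of the stalk, differed from its neighbours in length: at 317 codons it was lower in Heavy (-0.50, SE 0.17, adjusted p = 0.0231), with 958, 1313 and 1458 CPM in Heavy and 1399, 1617 and 2294 CPM in Light, and its groups overlapped. The call was lost without Heavy library 1, without Light library 3 and with median-of-ratios scaling. Without Heavy library 1 there were 14 ribosomal protein genes higher and 56 lower, and without both knockout libraries numbered 1 there were 14 and 57. With the coding-length trend removed in each library, 31 were higher and 19 lower, and their median was -0.02.

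**Figure D3:**
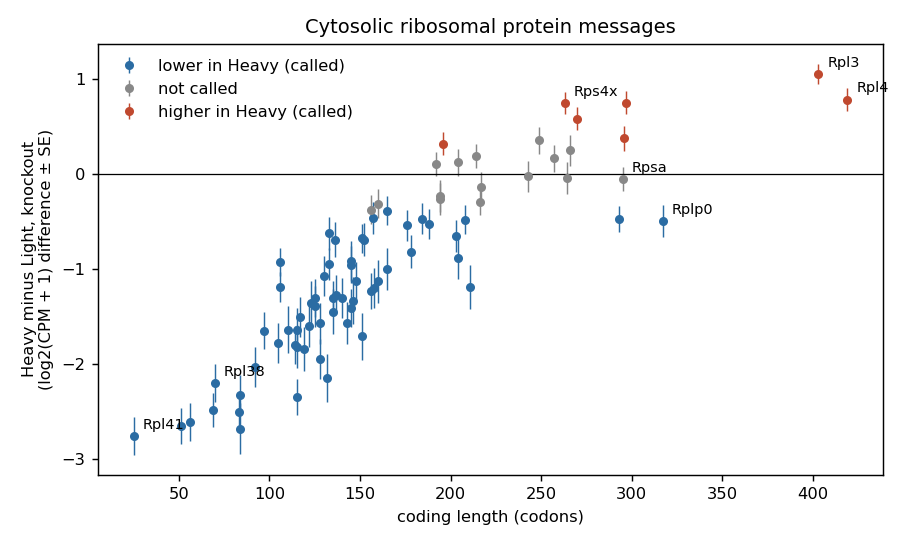
Heavy minus Light difference in knockout cells (log2(CPM + 1), with its SE) of 82 cytosolic ribosomal protein genes against coding length in codons. Blue points were called lower, red points higher and grey points not called. Rpl41 with 25 codons lies at -2.76 and Rpl3 with 403 codons at 1.05.

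Respiratory chain subunits made in the cytosol followed the same order. For complex I, which passes electrons from NADH, 29 of 37 genes were lower and 5 higher (median -1.47), and for complexes II to V 33 of 43 were lower and 6 higher (median -1.47). Ndufc1, an accessory subunit of 76 codons, was at 10.2, 15.96 and 16.96 CPM in Heavy and 81.8, 93.0 and 93.8 CPM in Light (-2.58, SE 0.17, adjusted p = 1.04e-07). Every Heavy library was far below every Light library. Ndufs1, the largest catalytic subunit with 727 codons, was at 76.3, 45.5 and 39.96 CPM in Heavy against 28.4, 27.0 and 29.6 CPM in Light (0.85, SE 0.19). Within ATP synthase the small Atp5e (-2.64) and Usmg5 (-2.59) stood at one end and the catalytic core Atp5a1 (1.14) and Atp5b (1.06) at the other. Higher members had a median of 463 codons in complex I and lower ones 131, and in complexes II to V 504.5 and 105. With the coding-length trend removed, complex I had 10 higher and 18 lower and complexes II to V 14 and 16.

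Mitochondrial ribosomal proteins, which translate the mitochondrial genome, gave 50 lower and 14 higher of 77 (median -0.81), with Mrps21 (87 codons, -2.41) and Mrpl33 (65 codons, -2.27) at the low end and Mrps31 (384 codons, 1.10) at the high end. The count became 26 lower and 25 higher with the coding-length trend removed. Replication-dependent histone genes, whose usual messages end in a stem-loop and lack a poly(A) tail, had 62 of 66 lower and none higher (median -1.03). The median level of these genes was 3.48 CPM, and all 24 that reached 5 CPM were lower. Their summed level was 257 to 395 CPM in Heavy and 737 to 946 CPM in Light. Hist1h2bc was at 23.1, 32.6 and 41.7 CPM in Heavy and 98.7, 101 and 83.0 CPM in Light (-1.54, SE 0.17). Its annotated transcript has 742 bases behind the coding region, and which forms of these messages were sequenced was not tested. Among 11 histone variants, 9 were lower, including H2afv (-2.09), the centromeric Cenpa (-1.999) and H2afz (-1.48), and the long H2afy with its macro domain was higher (0.38), with groups that overlapped and a call that was lost without Heavy library 2 or Light library 2. With the coding-length trend removed there were 26 higher and 1 lower for the replication-dependent genes and 5 and 3 for the variants. That trend came from genes averaging at least 1 CPM but was subtracted from every gene, which shifts values near 0 whatever their fraction. The turn of the replication-dependent genes is therefore uncertain.

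Chaperonin messages were the most Heavy of the lists. All 8 subunits of CCT, the double-ring complex that folds actin and tubulin, were higher, with a median of 1.10. Cct3 was at 1138, 908 and 677 CPM in Heavy and 397, 355 and 367 CPM in Light (1.25, SE 0.14, adjusted p = 3.77e-06), and Cct5 differed by 1.24. The lowest Heavy library of Cct3 lay above its highest Light library. CCT folds actin and tubulin, whose own lists had 16 of 28 and 13 of 16 genes higher and 4 and 1 lower. Among other cytosolic and mitochondrial chaperones 18 of 22 were higher and 1 lower. Stip1 (1.11), Hspa8 (0.97) and Hspd1 (0.89) were higher, while Hspe1, the 102-codon lid of the mitochondrial chaperonin that pairs with Hspd1, was lower (-1.66). Hspe1 lost its call with the coding-length trend removed (adjusted p = 0.513).

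Some RNA-binding proteins of the hnRNP and RGG group carry arginine and glycine rich stretches, which Prmt1 methylates. Which of the genes listed here encode such stretches was not tested. Of 38 genes, 31 were higher in Heavy and none lower (median 0.82). In control cells 35 were higher and none lower (median 1.20), so the Heavy position is not particular to the knockout. The difference between genotypes was called lower for 4 of them and higher for none. Hnrnpm, a splicing regulator, was at 451, 275 and 236 CPM in Heavy and 144, 138 and 138 CPM in Light (1.13, SE 0.18, adjusted p = 9.28e-05). All Heavy libraries were above all Light libraries. The list of SR splicing factors, which carry repeats of arginine and serine, had 15 of 26 higher and 2 lower, with the short Srsf9 at -1.41. That list also counts the helicase Ddx17 (1.02), which is not an SR protein itself. Ribosome biogenesis factors gave 31 of 40 higher and 2 lower (median 0.73). Bop1, needed for the large subunit, was at 258, 250 and 207 CPM against 106, 104 and 110 CPM (1.15, SE 0.14), and the 64-codon Nop10 of the pseudouridylation complex was at -2.25.

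Proteins that degrade, charge and copy were on the Heavy side too, where 28.4% of genes with at least 5 CPM were higher and 34.5% lower. Of 33 proteasome subunits 24 were higher and 1 was lower (median 0.66), with the regulatory subunits Psmd12 (1.22), Psmc2 (1.12) and Psmd2 (1.10) at the top and the 70-codon Shfm1 at -2.25. All but 1 of 21 cytosolic aminoacyl-tRNA synthetases, which join amino acids to tRNA, were higher (20, median 0.93), led by Hars (1.12), Yars (1.11) and Nars (1.11). For Hars the libraries read 314, 362 and 320 CPM in Heavy and 164, 148 and 144 CPM in Light, with no overlap. DNA replication genes had 34 of 47 higher and 5 lower (median 0.56). Mcm5 of the replicative helicase differed by 1.17 and Rrm2 of ribonucleotide reductase by 1.16, whereas the 121-codon Rpa3 of the single-strand binding complex was at -1.60. Mitosis genes had 20 of 42 higher and 4 lower, with Cdc20 (1.19) and Ccnb1 (1.10) against Birc5, the short survivin message (-1.17). DNA repair genes gave 17 of 42 higher and 5 lower, with Parp1, which marks DNA breaks, at 1.12, but 27 higher and 4 lower after quantile normalization. Glycolytic and hypoxia genes gave 17 of 30 higher and 4 lower. Pfkl (1.25) and Gapdh (1.10) were higher. The oxygen sensor Egln1, with 400 codons, was lower (-1.20), as were 791 of 2631 genes of 301 to 500 codons with at least 5 CPM.

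Translation factors divided by size as well. Of 43 initiation factor genes 21 were higher and 10 lower. Eif4a3, the helicase of the exon junction complex, was at 415, 427 and 339 CPM in Heavy and 196, 159 and 158 CPM in Light (1.20, SE 0.12). Eif3e (1.11) and Eif3l (1.05) of the initiation scaffold and Eif4g1 (0.52) were higher. Lower were the small Eif4ebp1, which holds the cap-binding protein when mTOR is off (-1.85), and Eif1, which guides start codon choice (-1.51). Eif4e, the cap-binding protein, was at 168, 204 and 236 CPM in Heavy and 255, 235 and 225 CPM in Light and was not called (-0.25, adjusted p = 0.15). The list of non-ribosomal messages with a terminal oligopyrimidine start, which mTOR controls as it does ribosomal proteins, had 18 of 23 higher and 1 lower (median 0.73). The lower one was Pabpc1, the poly(A)-binding protein whose message carries its own binding site. Pabpc1 was at 157, 130 and 169 CPM in Heavy and 260, 223 and 504 CPM in Light (-1.02, SE 0.24, adjusted p = 0.00227). Its coding region has 636 codons, and with the coding-length trend removed it was at -1.23.

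Messages with upstream starts were more Light. An ATG in the 5′ leader can capture scanning ribosomes before they reach the main start. Among genes of 301 to 1000 codons with at least 5 CPM, the 2781 with no ATG in the annotated leader had a median difference of 0.38, with 1319 higher and 411 lower. The median was 0.16 for 1238 genes with 1 ATG, 0.01 for 578 genes with 2, -0.09 for 524 genes with 3 to 4 and -0.14 for 313 genes with 5 or more. In the last group 57 were higher and 120 lower. Leaders with more ATGs are longer, their median length rising from 112 to 521 bases over these groups. Within leaders of 101 to 200 bases the medians were 0.38, 0.14 and -0.03 for 0, 1 and 2 or more ATGs, and within those of 201 to 400 bases 0.41, 0.17 and -0.03. These bins were chosen after the values had been seen, and the leader of 1 annotated transcript per gene stands for the gene.

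**Figure D4:**
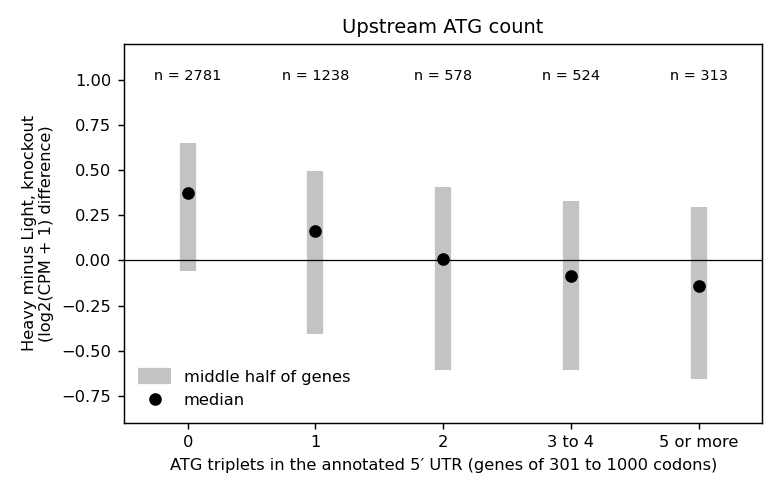
Median and interquartile range of the Heavy minus Light difference (log2(CPM + 1)) in knockout cells by the number of ATG triplets in the annotated 5′ leader, for genes of 301 to 1000 codons with at least 5 CPM. The median falls from 0.38 with no ATG to -0.14 with 5 or more.

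The integrated stress response uses such leaders: when initiation is limited, ribosomes pass the upstream frames and reach the main start. Of 20 genes with known regulatory upstream frames 10 were lower and 1 higher (median -0.33), where 34.5% of genes with at least 5 CPM were lower and 28.4% higher. Atf4, the transcription factor at the centre of the response, was at 524, 350 and 401 CPM in Heavy and 1113, 891 and 1126 CPM in Light (-1.31, SE 0.15, adjusted p = 4.42e-06). All Light libraries were above all Heavy libraries. Slc35a4 (-1.63), whose leader holds 12 ATGs, Ddit3 (-1.46), Atf5 (-1.32) and Ppp1r15a (-1.10), the last a phosphatase subunit that ends the response, were lower. Its constitutive relative Ppp1r15b was not called (-0.07, adjusted p = 0.59). Eprs, the synthetase for glutamate and proline, was the higher one (0.61, adjusted p = 0.0267), but this call was lost without Heavy library 1, Light library 2 or Light library 3. With the coding-length trend removed Atf4 was at -1.21 and Slc35a4 at -1.54. Targets of Atf4 leaned to the other side, with 15 of 36 higher and 3 lower, beside the same 28.4% and 34.5%. Psat1 of serine synthesis (1.03) and Asns, asparagine synthetase (0.94), were higher and the 80-codon Nupr1 was lower (-1.86). The target list had 12 higher and 4 lower without Heavy library 1, Light library 2 or Light library 3. It had 16 and 3 without Heavy library 2 or Light library 1, 17 and 3 without Heavy library 3, and 10 and 2 with the knockout libraries alone.

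Short recoded messages were mostly Light. An in-frame TGA before the annotated stop was found in 18 genes with at least 5 CPM, all of them known selenoprotein genes. Of these 11 were lower and 4 higher. Of the 10 with up to 250 codons 9 were lower, with a median of -1.72, where all 1996 genes of that length had a median of -1.05 and 1514 lower. Of the 8 longer ones 3 were higher and 2 lower, with a median of 0.23, beside 0.21 for all 7240 longer genes. Gpx1, the glutathione peroxidase of the cytosol, was at 44.7, 50.9 and 62.1 CPM in Heavy and 238, 297 and 393 CPM in Light (-2.51, SE 0.18, adjusted p = 1.17e-07). Gpx4, which reduces lipid peroxides, was at 74.4, 95.7 and 121 CPM in Heavy and 453, 522 and 625 CPM in Light (-2.46, SE 0.17). Neither gene's groups came near each other. Selenof of the endoplasmic reticulum (-1.70) and Selm (-2.10) were lower as well.

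Sephs2 makes the selenium donor and is itself a selenoprotein. At 452 codons it was at 17.6, 24.6 and 32.7 CPM in Heavy and 72.0, 101 and 98.2 CPM in Light (-1.84, SE 0.17), and at -1.98 with the coding-length trend removed. Gpx1 and Gpx4 were at -1.83 and -1.78 on that scale. Txnrd3 (0.89) and Txnrd1 (0.66), the thioredoxin reductases, whose TGA is followed only by a final residue and the stop, were higher. Selk was higher too (0.43, adjusted p = 0.0347), a call lost without Heavy library 1, Heavy library 2, Light library 2 or Light library 3. For Sephs2, 36.4% of the exon bases lie in Gm44729 on the other strand.

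Polyamine genes were mostly Light, with 11 of 16 lower and 1 higher (median -0.80). Oaz1, antizyme, binds ornithine decarboxylase and sends it to the proteasome, and its frameshift responds to polyamines. The message was at 95.5, 164 and 201 CPM in Heavy and 559, 869 and 865 CPM in Light (-2.35, SE 0.21, adjusted p = 5.03e-07). The median of genes with 201 to 300 codons was -0.35 and Oaz1 has 227, and with the coding-length trend removed it was at -1.84. Its reads cannot be told from those of the copy Oaz1-ps, which differed by at most 0.0018 log2 in any library. Oaz2, with the same kind of frameshift, was lower (-1.83), as were Sat1, which breaks polyamines down (-1.48), and Amd1, S-adenosylmethionine decarboxylase (-1.04), whose values equal those of its copy Amd2. Odc1, ornithine decarboxylase itself, was at 214, 450 and 541 CPM in Heavy and 404, 682 and 844 CPM in Light and was not called (-0.72, adjusted p = 0.0527), though with a replicate block it was (adjusted p = 0.00123). Its groups overlapped, and so did those of the antizyme inhibitor Azin1 (-0.11, adjusted p = 0.747), whose sign changed with the scaling.

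Of 14 iron genes 4 were higher and 3 lower, where 28.4% of genes with at least 5 CPM were higher and 34.5% lower. The ferritin messages carry an iron-responsive element in the leader, which a repressor binds when iron is low. Fth1 was at 349, 518 and 545 CPM in Heavy and 673, 1002 and 1324 CPM in Light (-1.06, SE 0.20), and Ftl1 differed by -0.87 (SE 0.20). Both separated the groups, but neither was called with the coding-length trend removed (adjusted p = 0.183 and 0.76). Alas1 of heme synthesis (1.00) and Hmox1, heme oxygenase (0.86), were higher. The transferrin receptor Tfrc, which carries its elements behind the coding region, was at 108 to 125 CPM in Heavy and 97.2 to 105 CPM in Light and was not called (0.22, adjusted p = 0.324).

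Of 1017 genes that RefSeq lists as long noncoding RNA, 377 were lower and 38 higher, and the rest were not called (median -0.09), where 26.8% of all genes were lower and 16.8% higher. Of 406 microRNA genes 44 were lower and 30 higher (median -0.01), and of 95 small nucleolar RNA genes 15 were lower and none higher. Most of these genes were near 0 CPM, where the log2(CPM + 1) scale understates a change. Only 136 long noncoding and 26 microRNA genes reached 5 CPM, and no small nucleolar RNA gene did. Of those 136, 85 were lower and 21 higher (median -0.66), beside 34.5% and 28.4% of all genes at that level. Of those 26, 11 were lower and 9 higher (median 0.08). Among host transcripts of small nucleolar RNAs 20 of 23 were lower and 1 higher (median -1.77). Snhg1 was at 23.1, 48.5 and 53.8 CPM in Heavy and 143, 275 and 319 CPM in Light (-2.53, SE 0.29), and Snhg3 (-2.36) and Gas5 (-1.82) were lower. The higher one was Nop56 (0.88), which codes for a protein of 580 codons. Neat1 (-1.25) and Pvt1 (-1.80) were lower too, while Malat1, a nuclear RNA, was at 3.38 to 8.77 CPM in Heavy and 6.43 to 16.9 CPM in Light and was not called (-0.84, adjusted p = 0.192). Zinc finger genes, by symbols of Zfp and a number, had 70 of 340 lower and 21 higher. After quantile normalization this turned to 48 lower and 56 higher, and the higher count was 9 without Heavy library 1 and 11 without Light library 2.

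Secreted and membrane proteins are made by ribosomes docked on the endoplasmic reticulum. Collagen chains had 9 of 33 higher and 3 lower, and noncollagen matrix proteins with collagen enzymes 14 of 43 higher and none lower (median 0.43). Of all genes 16.8% were higher and 26.8% lower, and of those with at least 5 CPM 28.4% and 34.5%. Col5a2 was at 806, 425 and 552 CPM in Heavy and 389, 280 and 327 CPM in Light (0.80, SE 0.21, adjusted p = 0.00556). Heavy library 1 was the highest and all Heavy libraries were above all Light ones. Col1a1, the main chain of bone collagen, was at 4661, 2329 and 3189 CPM in Heavy and 2473, 1870 and 2059 CPM in Light (0.62, SE 0.24, adjusted p = 0.0475), with overlap, and was not called without Heavy library 1 or Heavy library 3, or without Light library 2 or 3. Col1a2 (0.68, adjusted p = 0.0754) and Fn1, fibronectin (0.36, adjusted p = 0.132), were not called, but Col1a2 was with a replicate block (adjusted p = 0.00893). Without both knockout libraries numbered 1, collagens had 6 higher and 3 lower and the matrix list 6 higher and 1 lower. Leaving out Heavy library 1 or Light library 3 left 5 collagens higher, and the matrix list had 5 higher without Heavy library 1, 6 without Light library 2 and 9 without Light library 3. With the knockout libraries alone 3 collagens and 1 gene of the matrix list were higher. Of 31 genes for targeting and translocation 15 were lower and 8 higher, again by size, and 8 lower and 12 higher with the coding-length trend removed. Sec61g (68 codons, -2.40) and Ost4 (37 codons, -2.47) were lower and Sec61a1 (476 codons, 0.55) and Srp68 (625 codons, 0.99) higher. Reads of Ost4 and Agbl5 overlap on opposite strands over 53.2% of the exon bases of Ost4.

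Among all genes with at least 5 CPM 28.4% were higher and 34.5% lower. In the endoplasmic reticulum the chaperone list had 10 of 27 higher and 5 lower. Only 6 were higher without Heavy library 1 or without Light library 2, and 1 with the knockout libraries alone. Calr (0.73) and Pdia6 (0.68) were higher, calls that were lost in that last fit (adjusted p = 0.0521 and 0.0694), and the 179-codon Manf was lower (-1.57). Lysosomal genes had 21 of 38 higher and 6 lower, but 11 higher without Light library 2, 12 without Light library 3, 13 without Heavy library 1 and 6 with the knockout libraries alone. Within the proton pump that acidifies lysosomes, Atp6v1b2 with 511 codons was higher (0.94) and Atp6v1f (119 codons, -2.08) and Atp6v1g1 (118 codons, -2.04) were lower. Cholesterol and fatty acid genes gave 7 of 31 higher and 3 lower (4 higher without Heavy library 1, 3 without Light library 2 or 3, 11 without Light library 1), with Acly, which makes cytosolic acetyl-CoA, at 0.86 and the sterol sensor Insig1 at -1.14. Chemokines and cytokines had 10 of 23 lower and 2 higher. Cxcl12, a chemokine of 93 codons, was at 475, 724 and 784 CPM in Heavy and 1260, 1864 and 1675 CPM in Light (-1.29, SE 0.17), and Ccl7 was lower (-1.23), while the longer Csf1, the macrophage growth factor, was higher (0.39, adjusted p = 0.00393). Of 49 interferon and antigen presentation genes 9 were higher, near the 16.8% of all genes, and 5 lower, from Parp12 (0.97) to Bst2 (-1.11) and B2m (-0.86), the light chain of class I molecules. The interferon list had 4 higher and 5 lower without Heavy library 1, 5 and 6 without Light library 2, 14 and 4 without Heavy library 2, 15 and 3 without Light library 1, and 2 and 3 with the knockout libraries alone. With the coding-length trend removed the chemokine list gave 13 higher and none lower, a turn that is uncertain. That trend came from genes averaging at least 1 CPM but was subtracted from every gene, which shifts values near 0 whatever their fraction. The chemokine list had a median level of 0.97 CPM. Of its 8 genes with at least 5 CPM, 6 were lower and 1 higher before the removal. With a replicate block the interferon list gave 22 higher and 6 lower, the cholesterol list 16 and 3, the matrix list 26 and 1 and the collagens 14 and 3.

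Of 26 genes often described as sensitive to cap-dependent initiation 6 were higher and 4 lower, beside 16.8% and 26.8% of all genes. Ccnd1, cyclin D1, was at 266, 426 and 416 CPM in Heavy and 187, 237 and 253 CPM in Light (0.69, SE 0.19, adjusted p = 0.00716), with no overlap. Ctnnb1, beta-catenin (0.92), Jun (0.52) and Mcl1, a survival factor (0.39), were higher. Myc was at 281, 197 and 165 CPM in Heavy and 176, 162 and 179 CPM in Light, with overlap, and was not called (0.28, adjusted p = 0.245). Immediate early genes had 10 of 40 lower and 4 higher, which turned to 4 lower and 11 higher with the coding-length trend removed. Jund, a relative of Jun with a coding region of similar length (341 against 334 codons), was at 45.8, 42.5 and 52.4 CPM in Heavy and 132, 202 and 169 CPM in Light (-1.80, SE 0.18, adjusted p = 1.33e-06), but 52.6% of its exon bases lie in Gm11175 on the other strand. Btg1, an antiproliferative factor, was at -1.37. Without both knockout libraries numbered 1 the immediate early genes had 6 lower and 2 higher. Components of the mTOR pathway had 15 of 30 lower and 5 higher, with the small scaffold subunits Lamtor5 (-2.38) and Lamtor4 (-2.16) lower and the GTPase Rraga, which they recruit, higher (1.08).

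Nonsense-mediated decay factors gave 7 of 17 higher and 5 lower, where 28.4% of genes with at least 5 CPM were higher and 34.5% lower. Smg5, with 1017 codons, was an exception to size: it was at 319, 397 and 522 CPM in Heavy and 550, 779 and 950 CPM in Light (-0.87, SE 0.19, adjusted p = 0.00124). Among the arginine methyltransferases 4 of 8 were higher and 2 lower. Prmt10 (now Prmt9, 0.71), Prmt5 (0.67), which makes symmetric dimethylarginine, Prmt7 (0.52) and Prmt3 (0.34) were higher. Prmt2 was lower (-0.76), and Carm1 (-0.23, adjusted p = 0.31) and Prmt6 (0.23, adjusted p = 0.0543) were not called. The 2 lower ones were Prmt2 and Prmt1 itself.

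Prmt1 had the lowest difference between knockout and control cells of all 17515 genes. In knockout cells it was at 64.4, 121 and 145.3 CPM in Heavy and 166, 229 and 235 CPM in Light (-0.98, SE 0.21, adjusted p = 0.00133). In control cells it was at 412, 378 and 370 CPM in Heavy and 255, 243 and 218 CPM in Light (0.70), so the order was turned. The difference of the differences was -1.68 (SE 0.30, adjusted p = 0.0194). This call was lost without any 1 of the 3 control Heavy libraries and without control Light library 2 or 3 (adjusted p up to 0.068). Only 5 of the 6786 genes called in both genotypes had opposite signs, and 3 of these had at least 5 CPM: Prmt1, 2310003H01Rik (-0.63 in knockout, 0.33 in control) and Abhd1 (-0.54 and 0.26), the last 2 named because of this count.

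Over all genes the fraction of a message in knockout cells was close to that in control cells, on a narrower scale. In control cells 50.7% of genes were called, 4128 higher in Heavy (23.6%) and 4751 lower (27.1%). Across 9440 genes with at least 5 CPM in the 12 libraries, the Heavy minus Light differences of the genotypes, which share no library, had r = 0.975, and genes are not independent replicates. Their SD was 0.79 in knockout and 1.06 in control cells. By pairs of libraries with the same number, it was 0.945, 0.822 and 0.683 in knockout and 0.981, 1.13 and 1.11 in control cells. The knockout pairs were all below the control pairs, pair 1 by little.

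A test of the difference between the genotypes called 503 genes (2.87%), of which 62 were higher in knockout (0.354%) and 441 lower (2.52%). The counts were not stable. With a replicate block 9 genes were higher and 1 lower, quantile normalization gave 44 and 108, and median-of-ratios scaling 26 and 23. Leaving out 1 library gave between 7 (without control Light library 3) and 2011 (without knockout Heavy library 1). Of the 441 lower genes, 430 had a positive difference in control cells and 379 were still called higher in knockout. These genes were picked by a value that subtracts the control difference, so the choice itself favours a positive control difference. Of the 441, 384 had 301 to 1000 codons, a range that holds 9246 of the 17515 genes tested.

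Beside Prmt1, the lowest were Mfge8, a secreted bridging protein (-1.17), Cenpt of the kinetochore (-1.13), the smooth muscle actin Actg2 (-1.12), the disulfide isomerase Pdia6 (-1.12), Nucb1 (-1.12), the matrix protein Ecm1 (-1.09) and Impdh2, which makes guanine nucleotides (-1.05). Mfge8 was at 704, 594 and 523 CPM in knockout Heavy and 408, 340 and 382 CPM in knockout Light, and it was more Heavy in control cells (1.85 against 0.68). Among the highest were Galnt11, which starts O-glycans (1.18), Ccdc142 (1.03), Plec, which crosslinks filaments (0.92), Ccdc167 (0.87), the anion exchanger Slc26a6 (0.82), the immunoproteasome subunit Psmb10 (0.81) and the dynein heavy chain Dync1h1 (0.80). Galnt11 was at only 0.717 to 0.899 CPM in knockout Heavy. Ccdc142 and Ccdc167 share 72.1% and 38.1% of their exon bases with other genes.

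Of 73 genes with giant coding regions 19 were higher in Heavy and none lower in knockout (median 0.34), and 1 was higher and 6 lower in control cells (median -0.09). In knockout cells 18 of the 52 with at least 5 CPM were higher. At that level 66 of 203 genes of over 2000 codons were higher and 10 lower, and of all genes 28.4% and 34.5%. The difference between genotypes was called for 2 of the 73 giant genes, Plec and Dync1h1. Its median over the list was 0.41, beside -0.02 for all genes and 0.11 for all 391 genes of over 2000 codons. Both calls were lost with a replicate block, and both without any 1 of the control libraries. Lrp1, an endocytic receptor of 4545 codons, was at 429, 271 and 283 CPM in Heavy and 172, 185 and 152 CPM in Light of knockout cells (0.92, SE 0.17), and differed by 0.15 in control cells. The difference between genotypes was not called for Lrp1 (0.77, adjusted p = 0.0984). Herc2 (0.89) and Tln1, which ties integrins to actin (0.89), were higher in knockout, and the matrix protein Fbn1 (0.69) lost its call without Heavy library 1 or Light library 3. Plec was at 247, 173 and 256 CPM in Heavy and 169, 239 and 186 CPM in Light, with overlap. The list had 12 higher without Heavy library 1, 13 without both knockout libraries numbered 1 (median 0.22), and 43 with quantile normalization. CCT moved the other way, from a median of 1.77 in control to 1.10 in knockout cells, with 2 of 8 genes called for the difference.

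**Figure D5:**
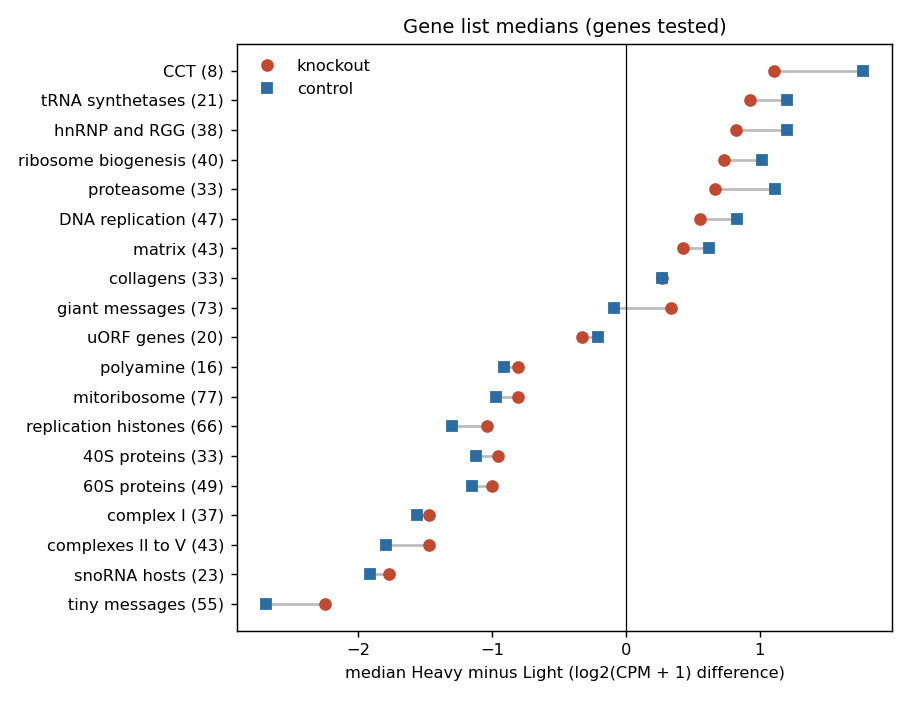
Median Heavy minus Light difference (log2(CPM + 1)) of 19 gene lists in knockout (circles) and control cells (squares), with the number of genes tested. Most knockout medians lie nearer 0 than control medians, such as 1.10 against 1.77 for CCT, and giant messages lie at 0.34 against -0.09.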

How the data were processed

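RNA from Heavy, Light and Total pools of control and knockout cells was sequenced with a TruSeq v2 kit, per the labels' protocols. The authors aligned reads with STAR to mm10 and used edgeR, per the submitters' processing notes. Their versions, the read counter and the strand setting are unknown here. The values were deposited as log2(CPM + 1), read from the values themselves: undoing the log2 gave CPM that summed to the same total in each library, and whole reads were recovered for 100% of values within 0.1 of a read. The log2 values were the unit of the main test because the deposited table is normalized.

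The Heavy against Light difference and its difference between genotypes were fitted with limma 3.58.1 (trend and robust; R 4.3.3) over 6 group means and all 18 libraries, for genes above 0 in at least 3 libraries, with Benjamini-Hochberg adjustment over all of them and a threshold of 0.05. SE is limma's moderated error, from 1 spread per gene that all 6 groups share. It can be too small for the knockout libraries, which varied more than the control ones. A fold change on the log2(CPM + 1) scale understates that of low genes. Summed levels were tested by an exact 2-sided permutation test. The fits were tested on simulated data. Alternatives were quantile and median-of-ratios scaling, other filters and pseudocount, no trend, a replicate block, voom on recovered reads, knockout libraries alone, removal of the coding-length trend, and leaving out each library and both knockout libraries numbered 1. Coding length, leaders and sequences came from 1 transcript per gene of GENCODE M21 (17380 genes), and symbols from RefSeq for 362 rows that lacked one or held a date.

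The genes and lists were chosen with earlier results of these data known. Named genes are the 10 highest and 10 lowest differences among called genes of at least 5 CPM whose groups do not overlap (unnamed gene models left out here and between genotypes), the 8 most abundant called genes in each direction, the 8 highest and lowest differences between genotypes, up to 4 called genes per list, the Prmt family and some genes set by name. Some genes that this rule names are not reported here. Further names (subunits set beside those, selenoprotein and overlap examples) were chosen after their values were seen. Per list, counts and medians are given and no set test was run. Such counts are to be read beside the 28.4% higher and 34.5% lower among all genes with at least 5 CPM. Libraries with the same number deviated together in the Heavy and Light knockout pools (correlations 0.57, 0.602 and 0.276) and in the control pools (0.406, 0.324 and 0.412). Knockout Heavy library 3, however, correlated more with Light library 2 (0.493), and the labels do not say if the numbers pair the libraries. The main fit ignores such a pairing. With a replicate block the genes called between genotypes fell from 503 to 10. No library pair agreed within counting noise (chi-square per degree of freedom 29.9 to 241). Reads of genes that share exons on either strand cannot be told apart. Over 15% of the exon bases are shared with another gene for Carm1, Ccnd1, Fbn1, Ftl1, Pkm, Prmt6, Rpl5 and Smu1, beside those named in the text.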

Additional observations from a re-analysis of the deposited data

Results flagged for a closer look

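The Heavy minus Light difference of knockout cells less that of control cells (log2(CPM + 1), limma, adjusted p under 0.05) singled out the genes below among those described. It was negative for Prmt1 (-1.68), Mfge8 (-1.17), Cenpt (-1.13), Actg2 (-1.12), Pdia6 (-1.12), Nucb1 (-1.12), Ecm1 (-1.09), Impdh2 (-1.05), Calr (-0.94), Ubb (-0.94), its copy Gm1821 (-0.92), Eif4a3 (-0.92), Actb (-0.89), Atp5b (-0.89), Gapdh (-0.85), Rpsa (-0.80), Wdr46 (-0.79), Psmc2 (-0.78), Sec61a1 (-0.77), Bop1 (-0.76), Rpl3 (-0.76), Atp6v1b2 (-0.75), Hars (-0.73), Rpl5 (-0.73), Rpl4 (-0.71), Rps4x (-0.68), Ccnb1 (-0.60) and Prmt3 (-0.51). It was positive for Ppp1r15a (0.57), Dync1h1 (0.80), Psmb10 (0.81), Slc26a6 (0.82), Ccdc167 (0.87), Plec (0.92), Ccdc142 (1.03) and Galnt11 (1.18). With a replicate block 2 of these 36 genes were still called. Without both knockout libraries numbered 1 there were 33 still called, and without knockout Heavy library 1 all 36. Without 1 control library, between 2 (without Light library 3) and 7 were still called, except that 29 were without control Light library 1.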

How the results depend on the processing

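The count of genes called between Heavy and Light in knockout cells, 7643, stayed between 5307 and 8610 under every alternative run, and between 6624 and 7953 when 1 library was left out, but the higher calls were 4610 after quantile normalization and 1625 with the knockout libraries fitted alone, beside 2949. Of the 186 genes described, 168 were called and 136 of these in all settings. With a replicate block 8610 genes were called, and among the genes described Rpl6 and Rpl19 lost their call and Col1a2 and Odc1 gained one, with no other change between Heavy and Light. The difference between genotypes (503 genes, 62 higher and 441 lower, 2720 at an unadjusted p under 0.05) gave 10 with a replicate block (9 and 1), 152 after quantile normalization (44 and 108), 49 with median-of-ratios scaling (26 and 23), 756 without the trend (687 lower), 335 with voom (21 higher), 30 higher with a pseudocount of 0.1, and 1460 without both knockout libraries numbered 1 (445 and 1015). Leaving out 1 library gave 7 to 2011 genes, 3 to 708 higher and 4 to 1303 lower. The cause was not tested.

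Signs turned for single genes as follows. With the coding-length trend removed the difference was 0.080 for Birc5, 0.721 for B2m, 0.257 for Eif4e, 0.097 for Rpsa, 0.183 for Lgals1, -0.058 for Plec, 0.004 for Psmb10, 0.373 for Ptma, 0.366 for Rps18, 0.017 for S100a6, 0.632 for Ccl7, 0.578 for Cxcl12, 0.071 for Eif1, 0.168 for Eif5a, -0.173 for Cenpt, 0.005 for Nupr1, 0.114 for Myl12a and 1.825 for Ccdc167. With median-of-ratios scaling it was 0.074 for Ppp1r15b, 0.083 for Rpsa, 0.033 for Azin1 and 0.097 for Ccdc167, and after quantile normalization 0.013 for Psmb10, 0.010 for Azin1 and 0.179 for Ccdc167. Without both knockout libraries numbered 1 it was -0.063 for Slc26a6, -0.004 for Plec and 0.016 for Carm1. With 1 library left out, the uncalled differences ran from -0.173 to 0.091 for Rpsa, -0.034 to 0.191 for Slc26a6, -0.042 to 0.144 for Cenpt, -0.270 to 0.129 for Azin1, -0.394 to 0.058 for Carm1 and -0.124 to 0.034 for Ccdc167.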

Other observations

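Total cytoplasmic RNA held some messages well above both pools. In 55 of 9872 genes with at least 5 CPM in Total, every Total library of knockout cells was over 2 times every Heavy and Light library, a comparison chosen after the values were seen. Ftl1, ferritin light chain, averaged 7848 CPM in Total, 939 CPM in Heavy and 1776 CPM in Light. Fth1, the heavy chain, averaged 3495, 471 and 999.5 CPM in the same order. Pabpc1 averaged 1465, 152 and 329 CPM, Rplp0 5053, 1243 and 1770 CPM, Rpl12 3138, 518 and 986.5 CPM, and Rpsa 4379, 1683 and 1772 CPM. Son, a long message for a nuclear speckle protein of 2444 codons, averaged 68.0, 19.2 and 19.1 CPM. Of the 55 genes 3 encode ribosomal proteins and 2 are long noncoding RNAs. Free messages outside the pooled fractions and differences in library totals were not measured separately.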
